A study of Mus musculus with 20 samples.

Results

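Antioxidant enzymes of the mouse kidney were followed as 10 genes chosen by symbol out of the 47069 genes in the count table: Sod1, Sod2 and Sod3 (superoxide dismutases), Cat (catalase), Gpx1 and Gpx3 (glutathione peroxidases), Gclc (glutathione synthesis), Txnrd1 (thioredoxin reductase), and Nqo1 and Hmox1 (inducible detoxifying enzymes). Each of the 10 was present in the table and passed the filter on low counts that left 17622 genes for testing. The lowest count of any of them in any mouse was 729, so none was limited by depth.

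Whole-kidney total RNA came from 20 male mice of a 129SJ x C57Bl/6J cross at 15 weeks of age. The 5 WT mice were littermates with intact Col4a3 and received nothing. The other groups were F1-Col4a3−/− mice, which lack the α3 chain of type IV collagen in every tissue and serve as a model of Alport syndrome, and their treatments began at 5 weeks of age. The 6 Veh mice were injected with PBS each week. The 6 Anti-miR-21 mice were injected weekly with lademirsen, an oligonucleotide that blocks the microRNA miR-21, at 50 mg/kg. The 3 ACEi mice drank water with ramipril, an inhibitor of angiotensin-converting enzyme, at 11 mg/L by the labels, while the library table gives 4 mg/kg, and were also injected with PBS. Because WT mice received no injection, genotype and PBS cannot be told apart between Veh and WT. The estimated counts summed to between 28474301 and 29479629 per mouse, and values below are CPM, counts relative to the library total after scaling between libraries with the TMM method.

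Col4a3 itself, checked first, had 217 ± 16.4 CPM in WT mice (SD, n = 5) and 37.8 ± 7.63 CPM in Veh mice (SD, n = 6). Its highest value in any F1-Col4a3−/− mouse was 74.9 CPM and its lowest value in a WT mouse was 194 CPM, so the genotype labels and the reads went together in all 20 mice. The extraction text names adipose tissue, whereas the tissue label is kidney. Slc34a1, the phosphate transporter of the proximal tubule, averaged 8517 CPM in WT mice, and 5 adipocyte markers together had between 0.492 and 116 CPM in the 20 mice. They were highest in the Veh mice A1, A4 and A9 (83.6, 116 and 80.1 CPM) and in the Anti-miR-21 mouse A12 (94.6 CPM), and at most 20 CPM in every other mouse.

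Cells make superoxide as a by-product of respiration. Superoxide dismutases turn it into hydrogen peroxide, Sod1 in the cytosol, Sod2 in the mitochondrial matrix and Sod3 outside the cell, and catalase in peroxisomes and the glutathione peroxidases then turn the peroxide into water. Glutathione, whose first synthetic step is catalysed by the enzyme that Gclc encodes in part, and thioredoxin, which Txnrd1 keeps reduced, supply electrons. The transcription factor NRF2 (Nfe2l2), held back by KEAP1, raises Nqo1, Hmox1, Gclc and Txnrd1 through a short DNA element called the antioxidant response element. The proximal tubule is rich in mitochondria and peroxisomes and secretes the plasma form of glutathione peroxidase, Gpx3.

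RefSeq promoter windows (GRCm38.p6, 250 bases before to 50 after an annotated start) were found for 7 of the 10 genes. They are shown as a description, and their relation to the fold changes was not tested. The core of the antioxidant response element, TGACNNNGC on either strand, was present in windows of 2 of the 7 genes, Sod1 and Txnrd1. Counted by window, that was 2 of the 9 windows of the 7 genes, beside 12.4% of the 32851 promoter windows of all genes. Each of the 7 genes had a GC box (GGGCGG on either strand) in a window, in 7 of their 9 windows, and 35.7% of all windows held one. The 2 motifs did not overlap in these windows. In Sod1 the element lies on the minus strand from −56 to −48, and in Txnrd1 from −92 to −84 of 1 of its 3 windows. The 150 bases before the start are printed 5′ to 3′ on the strand of the gene, with both motifs in capitals; GGGCGG and CCGCCC are GC boxes, and the longer capital run ending in TCA is the element.

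Sod1, chr16:90220612-90220761, plus strand:
Sod1: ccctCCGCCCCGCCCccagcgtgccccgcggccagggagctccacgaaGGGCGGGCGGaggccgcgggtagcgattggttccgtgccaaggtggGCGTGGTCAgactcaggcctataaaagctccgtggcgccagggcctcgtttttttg
Txnrd1, chr10:82859056-82859205, plus strand:
Txnrd1: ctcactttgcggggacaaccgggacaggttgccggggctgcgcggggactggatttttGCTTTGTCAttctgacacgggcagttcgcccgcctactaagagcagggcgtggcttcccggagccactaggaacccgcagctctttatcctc
Cat, chr2:103485154-103485303, minus strand:
Cat: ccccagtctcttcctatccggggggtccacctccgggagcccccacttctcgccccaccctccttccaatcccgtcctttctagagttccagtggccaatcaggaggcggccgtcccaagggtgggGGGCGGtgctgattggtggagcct
Nqo1, chr8:107403206-107403355, minus strand:
Nqo1: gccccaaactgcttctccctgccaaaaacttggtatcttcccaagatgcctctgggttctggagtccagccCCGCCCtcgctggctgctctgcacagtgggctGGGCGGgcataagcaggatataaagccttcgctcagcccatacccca

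These letters are a match and not evidence of binding. The window of Nqo1, a textbook NRF2 target, did not hold the element, which says only that these letters are outside these bases.

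The levels of the 10 genes spanned a wide range. Per length, on the deposited FPKM scale, Gpx3 had the highest mean level in WT mice at 12816 ± 1118 FPKM (SD, n = 5), 9.78 times that of Gpx1 at 1311 ± 110 FPKM. Sod1 followed at 728 ± 65 FPKM, Cat at 445 ± 34.6 FPKM and Sod3 at 392 ± 36.6 FPKM. Gclc (95.9 FPKM), Sod2 (76.3 FPKM), Txnrd1 (42.8 FPKM) and Nqo1 (33 FPKM) were lower, and Hmox1 had the lowest level at 23.5 FPKM. The authors marked the FPKM entry of Txnrd1 as sharing reads with other genes. Gpx3 alone held 80.8% of the counts of the 10 genes in WT mice, and by mean count it ranked 4 among all genes in WT, 3 in Veh and 2 in both treated groups. The 10 genes together took 2.38% ± 0.182 of all counts in WT mice (SD, n = 5), 1.45% ± 0.237 in Veh mice (n = 6), 2.39% ± 0.158 in Anti-miR-21 mice (n = 6) and 2.24% ± 0.113 in ACEi mice (n = 3).

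Loss of Col4a3 went with lower levels of 9 of the 10 enzymes. In Veh compared with WT mice, Sod1, Sod2, Sod3, Cat, Gpx1, Gpx3, Nqo1, Txnrd1 and Gclc fell and Hmox1 rose with TMM scaling, while Txnrd1 stood above 0 and was not called with library totals alone. A gene was called where edgeR's p, adjusted across the genes tested by the Benjamini-Hochberg method, was under 0.05, and 34% of all genes were then called lower in Veh and 39% higher. With library totals alone those shares were 15.2% and 66%, and with upper-quartile scaling 29.6% and 44.1%. All 9 genes called lower also had every Veh mouse below every WT mouse, a pattern seen in 26.1% of all genes, and Hmox1 had every Veh mouse above every WT mouse, which 28.8% of all genes had. The median log2 fold change of the 10 genes was −1.46, beside 0.07 for all genes tested.

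**Figure D1:**
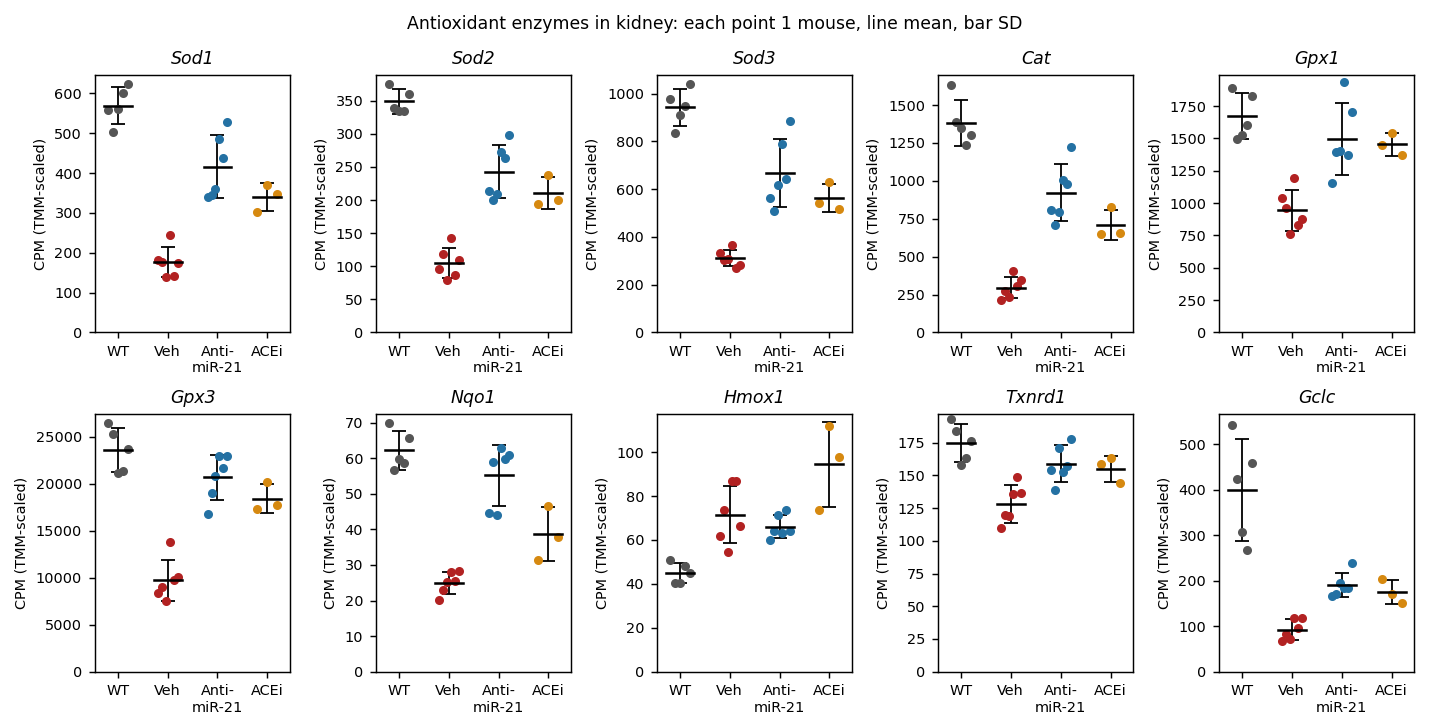
TMM-scaled CPM (y axis, from 0) of each of the 10 enzymes in every mouse, by group (x axis); each point is 1 mouse, the horizontal line is the group mean and the bar is the SD. In 9 panels the 6 Veh mice lie below the 5 WT mice with both treated groups mostly between them, while in the Hmox1 panel the WT mice, at 40.3 to 50.9 CPM, are the lowest.

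Catalase showed the largest fall of the 10. The WT mice A3, A6, A14, A17 and A18 had 1631, 1387, 1346, 1236 and 1302 CPM of Cat. In the 6 Veh mice Cat ran from 216 to 402 CPM with a median of 289, in the Anti-miR-21 mice from 710 to 1226 CPM with a median of 895, and the ACEi mice A11, A13 and A23 had 652, 826 and 654 CPM. No group overlapped with Veh, and Anti-miR-21 and ACEi mice overlapped with each other. The log2 fold change of Veh against WT was −2.22 (SE 0.16, edgeR adjusted p = 1.5e-10), which left Veh at 21.4% of the WT mean.

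All 3 superoxide dismutase genes fell in Veh mice. Sod1, the cytosolic enzyme, had 558, 503, 560, 601 and 623 CPM in the WT mice A3, A6, A14, A17 and A18. It ran from 140 to 245 CPM in the Veh mice (median 176) and from 340 to 528 CPM in the Anti-miR-21 mice (median 398). The ACEi mice A11, A13 and A23 had 303, 370 and 347 CPM of Sod1. All 6 Veh mice were thus below every other mouse, and the highest Anti-miR-21 mouse, A22, reached the WT range. Between Veh and WT the log2 fold change was −1.69 for Sod1 (SE 0.14, edgeR adjusted p = 9.7e-10), −1.73 for the mitochondrial Sod2 (SE 0.13, adjusted p = 3.6e-10) and −1.60 for the extracellular Sod3 (SE 0.12, adjusted p = 3.7e-10). Sod2 averaged 349 ± 18.2 CPM in WT mice (SD, n = 5) and 105 ± 22.8 CPM in Veh mice (SD, n = 6), and Sod3 averaged 942 ± 77 and 311 ± 34.1 CPM. On chromosome 16 (90220754 to 90226329 on GRCm38) Sod1 overlaps Scaf4 on the opposite strand. Whether the authors' counting used strand is not given in the sources used here, so reads may be shared where the genes overlap.

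Gclc encodes the catalytic subunit of the enzyme that starts glutathione synthesis. It had 543, 424, 308, 268 and 458 CPM in the WT mice A3, A6, A14, A17 and A18, and the WT coefficient of variation of 28% was the largest of the 10 genes. The Veh mice lay between 66.7 and 119 CPM (median 89.9), the Anti-miR-21 mice between 166 and 240 CPM (median 184), and the ACEi mice A11, A13 and A23 had 204.4, 169.8 and 151.7 CPM. The groups other than Anti-miR-21 and ACEi did not overlap, and even the highest treated mouse, A22 with 240 CPM, was below the lowest WT mouse. The log2 fold change of Veh against WT was −2.11 (SE 0.18, edgeR adjusted p = 1.8e-09).

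The glutathione peroxidases fell less. Gpx3, the secreted enzyme, had 26501, 25275, 21148, 21377 and 23705 CPM in the WT mice A3, A6, A14, A17 and A18. It ran from 7496 to 13764 CPM in Veh mice (median 9403) and from 16766 to 22972 CPM in Anti-miR-21 mice (median 21223), and the ACEi mice A11, A13 and A23 had 17365, 20183 and 17707 CPM. Every Veh mouse was below every mouse of the other groups, and the Anti-miR-21 mice overlapped with the WT mice. The log2 fold change of Veh against WT was −1.28 (SE 0.14, adjusted p = 6.5e-08) for Gpx3 and −0.82 (SE 0.13, adjusted p = 7.3e-06) for the intracellular Gpx1, by edgeR. Gpx1 averaged 1670 ± 178 CPM in WT mice (SD, n = 5) and 944 ± 158 CPM in Veh mice (SD, n = 6).

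Txnrd1, the cytosolic thioredoxin reductase, had the smallest fold change of the 10 between Veh and WT. WT mice had 193, 184, 158, 163 and 176 CPM in the order A3, A6, A14, A17 and A18, and the Veh mice ran from 110 to 149 CPM (median 128). The Anti-miR-21 mice ran from 139 to 178 CPM (median 155), and 159, 163 and 144 CPM were measured in A11, A13 and A23 of the ACEi group. Veh and WT mice did not overlap, by 149 against 158 CPM, whereas both treated groups overlapped with both. The log2 fold change of Veh against WT was −0.44 (SE 0.08, edgeR adjusted p = 6.1e-05) with TMM scaling, and it was 0.14 with library totals alone and 0.15 on log2(FPKM + 1), neither of which was called. Txnrd1 (chromosome 10, 82833951 to 82897712) overlaps Eid3 on its own strand and Gm38560 and Gm47073 on the opposite strand, so its reads may be shared.

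Nqo1 encodes a quinone reductase and Hmox1 the inducible heme oxygenase, and these inducible genes moved in opposite directions in Veh mice. Nqo1 had 70, 56.7, 59.7, 58.8 and 65.8 CPM in the WT mice A3, A6, A14, A17 and A18, and the Veh mice ran from 20.1 to 28.3 CPM (median 25.3). Its log2 fold change was −1.31 (SE 0.12, edgeR adjusted p = 2.6e-09). Hmox1 had 50.9, 40.5, 40.3, 48.1 and 45 CPM in the same WT mice and ran from 54.6 to 86.7 CPM in the Veh mice (median 70). It was thus higher in every Veh mouse than in any WT mouse, with a log2 fold change of 0.67 (SE 0.12, adjusted p = 4.3e-05 by edgeR).

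The scaling of the libraries moved all genes together, so directions were read against it. Using library totals alone, the genes tested had a median log2 fold change of 0.65 between Veh and WT, against 0.07 with TMM and 0.18 with upper-quartile scaling. Relative to that median, with library totals alone, Cat stood at −2.29, Gclc at −2.18, Gpx1 at −0.89, Txnrd1 at −0.51 and Hmox1 at 0.60. With library totals alone 8 of the 10 genes were below 0 in Veh, as Txnrd1 joined Hmox1 above 0. The TMM factors lay between 0.7705 and 0.8496 in the WT mice and between 1.123 and 1.264 in the Veh mice.

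**Figure D2:**
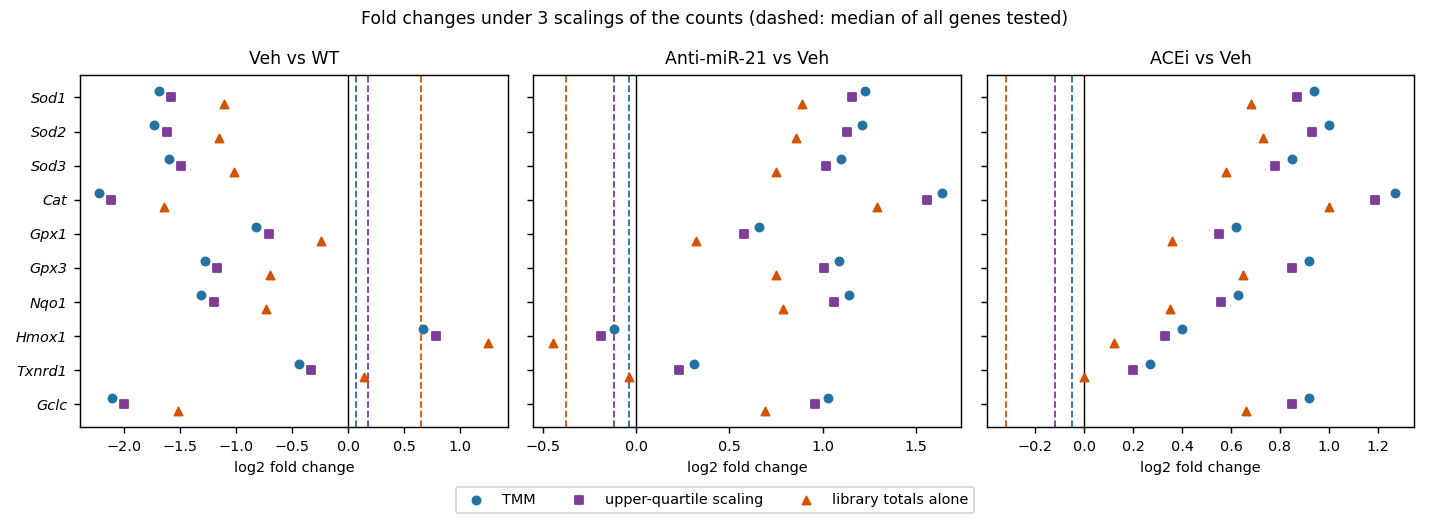
Log2 fold change (x axis) of each enzyme (y axis) in 3 comparisons with counts scaled by TMM (circles), by upper quartile (squares) or by library totals alone (triangles); the dashed lines of the same colors are the medians of all genes tested. The symbols of a gene shift with the dashed lines, and Txnrd1 crosses 0, from −0.44 to 0.14 between Veh and WT.

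Treatment with Anti-miR-21 went with higher levels of 9 of the 10 enzymes, though Txnrd1 was not called with library totals alone. In Anti-miR-21 compared with Veh mice, 9 genes were called higher where 28.8% of all genes were, none was called lower where 30.5% of all genes were, and in 7 of them every Anti-miR-21 mouse was above every Veh mouse, which 18.6% of all genes showed. Scaling by library totals alone called 14% of all genes higher and 56% lower. The median log2 fold change of the 10 genes was 1.09, and that of all genes tested was −0.04. Cat rose most, 3.11-fold (log2 fold change 1.64, SE 0.15, edgeR adjusted p = 5.9e-08). Sod1 rose 2.35-fold, Sod2 2.31-fold, Sod3 2.15-fold, Nqo1 2.21-fold, Gpx3 2.12-fold and Gclc 2.05-fold. Gpx1 rose 1.58-fold (adjusted p = 0.00011), with the lowest treated mouse, A2 at 1157 CPM, below the highest Veh mouse, A16 at 1197 CPM. Txnrd1 rose 1.24-fold with TMM scaling (adjusted p = 0.00233), but its log2 fold change was −0.04 with library totals alone and on log2(FPKM + 1). Hmox1 was the exception. It had 59.8 to 73.5 CPM in Anti-miR-21 mice (median 64.1), inside the range of the Veh mice, a log2 fold change of −0.12 (95% interval −0.35 to 0.12, edgeR adjusted p = 0.387). With library totals alone that value was −0.45 and was called (adjusted p = 0.0009), beside a median of −0.38 for all genes. On log2(FPKM + 1) Hmox1 was called lower too, with means of 41 FPKM in Anti-miR-21 mice and 56.4 FPKM in Veh mice.

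Ramipril went with higher levels of all 10 enzymes with TMM scaling, of which Hmox1 and Txnrd1 were not called with either other scaling or with only the 2 groups fitted. ACEi mice were called higher than Veh mice in 10 of 10 genes, beside 21% of all genes called higher and 19.1% called lower, and in 8 of them every ACEi mouse was above every Veh mouse, beside 19.8% of all genes. Library totals alone gave 10.8% of all genes higher and 41.9% lower. The median log2 fold change of the 10 was 0.89, against −0.05 for all genes. Cat rose 2.4-fold (log2 fold change 1.27, SE 0.17, edgeR adjusted p = 2.3e-05), Sod2 2-fold, Sod1 1.92-fold, Gpx3 and Gclc both 1.89-fold and Sod3 1.81-fold. Nqo1 rose 1.55-fold (adjusted p = 0.00092), and its values in A11, A13 and A23 were 31.4, 46.7 and 38 CPM, all above the highest Veh mouse at 28.3 CPM. Gpx1 rose 1.54-fold (adjusted p = 0.00227). For Hmox1 and Txnrd1 the calls were less secure. Hmox1 had 73.8, 112 and 97.6 CPM in A11, A13 and A23, of which that of A11 lay within the Veh range, and its log2 fold change was 0.40 (SE 0.14, edgeR adjusted p = 0.0242). Without mouse A13 it was 0.26 and not called (adjusted p = 0.2), and it was not called without A23 (adjusted p = 0.0738) or with upper-quartile scaling (adjusted p = 0.0523). Txnrd1 had a log2 fold change of 0.27 (SE 0.10, adjusted p = 0.0279), which was not called without A11 (adjusted p = 0.0817) or without A13 (adjusted p = 0.113), and which was close to 0, at −0.00055, with library totals alone. Both treatments were compared with the same 6 Veh mice, so the values above share those mice.

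**Figure D3:**
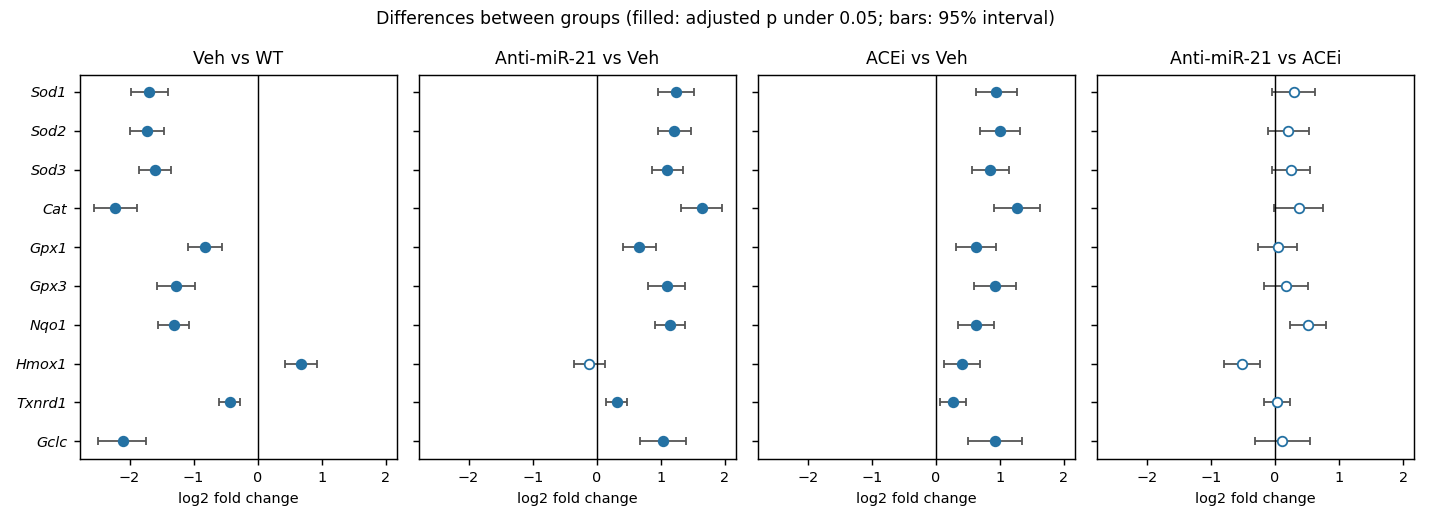
Log2 fold change of each enzyme in 4 comparisons with its unadjusted 95% interval (bar); filled points passed an adjusted p of 0.05 in edgeR's test with TMM scaling and open points did not. Filled points lie left of 0 for 9 genes between Veh and WT, and right of 0 for 9 and 10 genes in Anti-miR-21 and ACEi mice against Veh, while all 10 points between the treatments are open.

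Set directly against each other, the treatments did not differ beyond the test's threshold in any of the 10 genes. Between Anti-miR-21 and ACEi mice 0.584% of all genes were called, 103 in number, and 0 of the 10 enzymes by edgeR, although 2 of the 10 had an unadjusted p under 0.05 (beside 14.5% of all genes), and DESeq2 called those 2, with 2.48% of all genes (437). They were Nqo1 and Hmox1. Nqo1 had 44.6, 58.9, 44.1, 62.9, 59.9 and 60.9 CPM in the Anti-miR-21 mice A2, A8, A10, A12, A15 and A22, and the ACEi mice overlapped with the lower ones through A13 at 46.7 CPM. Its log2 fold change of Anti-miR-21 against ACEi was 0.51 (95% interval 0.23 to 0.80, edgeR adjusted p = 0.0882, DESeq2 adjusted p = 0.0236). Hmox1 was lower in all 6 Anti-miR-21 mice than in all 3 ACEi mice, by 73.5 against 73.8 CPM at the nearest, a pattern in 4.8% of all genes, with a log2 fold change of −0.52 (95% interval −0.80 to −0.23, edgeR adjusted p = 0.0805, DESeq2 adjusted p = 0.0256). For the other genes the difference lay between 0.03 for Txnrd1 and 0.37 for Cat, and the 95% interval of Cat ran from −0.01 to 0.75. For Gpx1 the interval was −0.27 to 0.35 and for Gclc −0.32 to 0.55.

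Compared with WT mice, the treated kidneys stood at different levels for different enzymes. Gclc stood furthest below WT among the 10, at 47.3% of the WT mean in Anti-miR-21 mice and 43.8% in ACEi mice. Its log2 fold changes against WT were −1.08 (edgeR adjusted p = 6.6e-05) and −1.19 (edgeR adjusted p = 0.00022). Cat was at 66.7% and 51.5% of the WT mean, Sod1 at 73.1% and 59.7%, Sod2 at 69.7% and 60.4%, and Sod3 at 70.8% and 59.6%. In Anti-miR-21 mice 5 genes, Sod1, Sod2, Sod3, Cat and Gclc, were called lower than WT, where 19.8% of all genes were, and Hmox1 was called higher, where 23.9% were. In ACEi mice 6 genes, the same 5 and Nqo1, were called lower, where 22.5% of all genes were, and Hmox1 again higher, where 25.2% were. Hmox1 stood at 147% of the WT mean in Anti-miR-21 mice (log2 fold change 0.55, SE 0.12) and at 210% in ACEi mice (1.07, SE 0.14). Gpx1, Gpx3 and Txnrd1 were not called different from WT in either treated group by edgeR over all mice, with 95% intervals of −0.43 to 0.11, −0.48 to 0.10 and −0.31 to 0.03 in Anti-miR-21 mice. In ACEi mice the intervals were −0.52 to 0.12 for Gpx1 and −0.38 to 0.04 for Txnrd1. For Gpx3 every ACEi mouse was below every WT mouse, by 20183 against 21148 CPM, as in 22.3% of all genes, and the log2 fold change of −0.36 was not called by edgeR (adjusted p = 0.0905) but was by DESeq2 (adjusted p = 0.0283) and by edgeR with only these groups fitted (adjusted p = 0.0475). Nqo1 was at 88.8% of the WT mean in Anti-miR-21 mice (log2 fold change −0.17, adjusted p = 0.235) and at 62.2% in ACEi mice (−0.68, adjusted p = 0.00056). With library totals alone Gpx1, Gpx3, Nqo1 and Txnrd1 were 0.05 to 0.10 above WT in Anti-miR-21 mice on the log2 scale, not called, beside a median of 0.26 for all genes, with 43.8% of all genes higher and 5.66% lower, and Sod1 at −0.22 was no longer called (adjusted p = 0.0825). The shares for ACEi against WT were then 45.4% and 7.63%.

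By mean CPM the order of the groups was WT, Anti-miR-21, ACEi and Veh for 9 of the 10 genes. By mean FPKM, which was not scaled by TMM, that order held for 5 of them. There Gpx1 ran from ACEi (1422 FPKM) over Anti-miR-21 (1383 FPKM) to WT (1311 FPKM), Gpx3 and Nqo1 were highest in Anti-miR-21 mice (13277 and 34.6 FPKM), and Txnrd1 was highest in Veh (47.7 FPKM) and lowest in WT mice. Of the neighbors in the order by CPM, by edgeR with TMM scaling, ACEi and Veh passed the test in all 9, of which Txnrd1 did not with the other scalings or without A11 or A13, and Anti-miR-21 and ACEi passed it in none, where DESeq2 called Nqo1. WT and Anti-miR-21 differed in Sod1, Sod2, Sod3, Cat and Gclc, and did not pass the test in Gpx1, Gpx3, Nqo1 and Txnrd1. Hmox1 had the order ACEi, Veh, Anti-miR-21 and WT, in which Veh and Anti-miR-21 did not pass the test and Anti-miR-21 and WT did. The step from ACEi to Veh passed it with TMM scaling (adjusted p = 0.0242), but not with the other scalings, with only these groups fitted, or without A13 or A23.

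Mice of one group differed from each other across the enzymes together. Relative to the WT mean, the median log2 ratio over the 9 genes other than Hmox1 lay between −1.79 (A19) and −1.21 (A16) in the Veh mice. In the Anti-miR-21 mice it lay between −0.72 (A8) and −0.09 (A22), with A12 at −0.22 and A15 at −0.38, and in the ACEi mice it was −0.85, −0.55 and −0.71 in A11, A13 and A23. A16 was the highest Veh mouse for 8 of the 10 genes, A13 the highest ACEi mouse for 9, A22 the highest Anti-miR-21 mouse for 6, and A3 the highest WT mouse for 8. Cat was the lowest of the 9 genes in each of the 6 Veh mice, and Gclc in each of the 6 Anti-miR-21 mice. No mouse stood outside its group for any of the 10 genes by Dixon's test in the 30 groups of 4 or more mice.

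**Figure D4:**
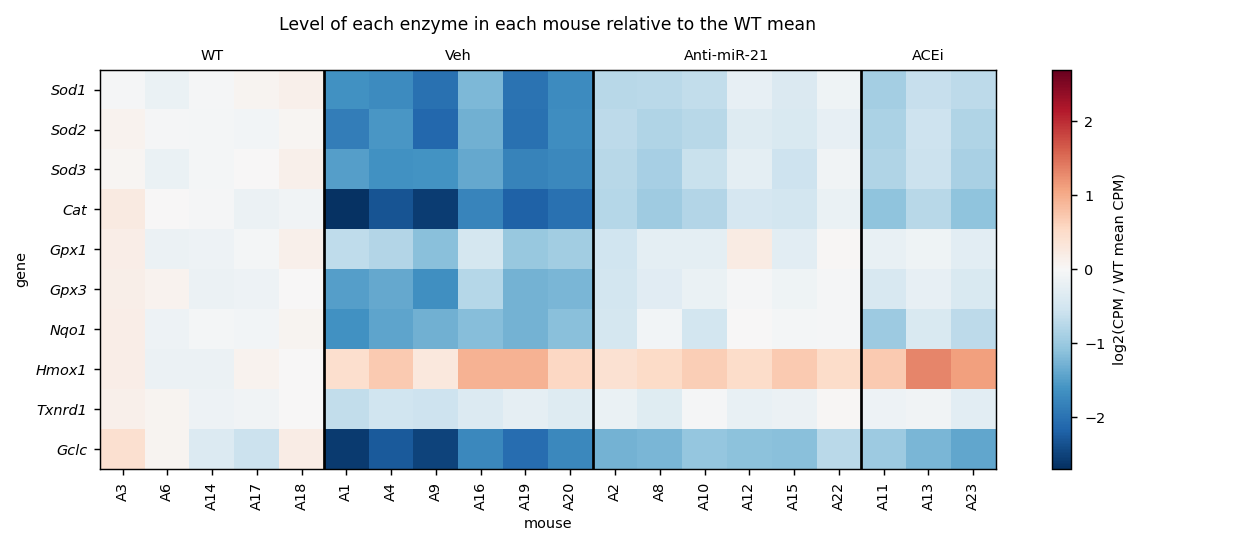
Log2 ratio of CPM to the WT mean (color, blue below and red above) for each enzyme (rows) in each of the 20 mice (columns, by group). The Veh columns are darkest for Cat and Gclc, the Anti-miR-21 columns A12, A15 and A22 are the palest of the treated mice, and the Hmox1 row is red in all F1-Col4a3−/− mice.

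Mice of all 4 groups were run on each of the flow cells, A with 13 libraries and B with 7. Between Veh and WT all 10 genes were called within each flow cell, where 65.2% of all genes tested on A and 50.1% of those on B were, with log2 fold changes of Cat of −2.49 and −1.77. For Anti-miR-21 against Veh the value of Cat was 1.89 on A, where 9 of the 10 and 53.5% of all genes were called. It was 1.09 on B, which held 1 Anti-miR-21 mouse and where 1 of the 10 and 2.33% of all genes were called. For ACEi against Veh it was 1.36 on A, which held 1 ACEi mouse, with 7 of the 10 and 16.6% of all genes called, and 0.99 on B, with 3 and 7.35%. With flow cell as a term over all mice, 9 of the 10 and 37.3% of all genes were called between ACEi and Veh, without Txnrd1 (log2 fold change 0.25, adjusted p = 0.0529). Differences between flow cells were not tested.

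The kidney cell types moved with these values. In bulk RNA, fewer cells of a type and less RNA per cell cannot be told apart. The 7 proximal tubule markers summed to 15953, 13984, 13763, 12864 and 12354 CPM in the WT mice A3, A6, A14, A17 and A18. They ran from 1375 to 3912 CPM in Veh mice (median 2122) and from 6970 to 11442 CPM in Anti-miR-21 mice (median 8462), and were 7134, 9403 and 7227 CPM in A11, A13 and A23. A16, A22, A13 and A3, which had the highest median log2 ratio of the 9 enzymes in their groups, were also the highest of their groups for these markers. The match was not complete, since A18, the lowest WT mouse for the markers at 12354 CPM, had the second highest enzyme median of the WT mice at 0.09. All 7 markers fell in Veh against WT and rose in both treated groups against Veh, and Slc34a1 was the most abundant. Macrophage markers went the other way, from 140 to 154 CPM in WT mice and 839 to 1028 CPM in Veh mice. All 7 rose in Veh against WT, and all 7 fell in each treated group against Veh. Csf1r led them in WT mice at a mean of 111 CPM. In Veh mice C1qb led at 273 CPM, and Csf1r had 224 CPM. The 5 fibroblast markers summed to 190 ± 56.3 CPM in WT mice and 1665 ± 114 CPM in Veh mice, led by Col1a1. No marker of these lists was at 0 in all mice. The part of these cell types in the enzyme values was not tested.

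Smaller marker lists are given for completeness. Thick ascending limb markers, led by Umod, summed to 6102 ± 438 CPM in WT mice and 3206 ± 1112 CPM in Veh mice, and collecting duct markers, led by Aqp2, to 522 ± 142 and 324 ± 124 CPM. Podocyte markers, led by Podxl, had 250 ± 48.4 and 362 ± 20.1 CPM, and endothelial markers, led by Emcn, 191 ± 66.3 and 225 ± 23.8 CPM. Smooth muscle markers, led by Acta2 in WT and Tagln in Veh, had 141 ± 26.8 and 442 ± 86.5 CPM. T cell markers, led by Cd8a in WT and Lck in Veh, had 2.7 ± 0.541 and 22.4 ± 10.9 CPM. Neutrophil markers, led by Csf3r, had 2.62 ± 1.56 and 17.7 ± 2.46 CPM (all with SD, n = 5 WT and 6 Veh). These sums can hide genes that differ. With TMM scaling, 3 of 4 thick ascending limb markers were called lower in Veh, and Cldn16 higher (log2 fold change 0.59). Of 5 endothelial markers, 2 were called higher in Veh and 1, Kdr, lower (−0.78). Of 3 neutrophil markers tested, 1, Csf3r, was called, higher in Veh.

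Hmox1 breaks down heme, so red cell markers are given beside it. They summed to 2381, 6562, 2040, 1099 and 1689 CPM in the WT mice A3, A6, A14, A17 and A18, to 12.7 to 399 CPM in the Veh mice, to 755 to 1481 CPM in the Anti-miR-21 mice and to 374, 767 and 698 CPM in A11, A13 and A23, led by Hbb-bs. All 6 were called lower in Veh than in WT while Hmox1 was called higher. Macrophage markers and Hmox1 were both called higher in Veh than in WT, the markers in 7 of 7. The markers summed to 470, 461 and 543 CPM in the ACEi mice A11, A13 and A23, and all 7 fell from Veh to ACEi, where the call of Hmox1 as higher depended on the scaling and on A13 and A23. Their part in the level of Hmox1 was not tested.

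The wider redox genes were read from 10 lists with 104 genes, of which 103 were tested. These lists were written with earlier results of these data known. Together 74 of the 103 fell and 20 rose in Veh against WT, and their median on the log2 scale was −0.85 (56 and 36 with library totals alone, median −0.27). Of all genes, 34% were lower and 39% higher (15.2% and 66% with library totals alone). In Anti-miR-21 mice 70 were higher and 18 lower than in Veh (median 0.53), against 53 and 30 with library totals alone, and in ACEi mice 63 were higher and 12 lower (median 0.41), against 46 and 23. The shares of all genes were 28.8% higher and 30.5% lower for Anti-miR-21 (14% and 56% with library totals alone) and 21% and 19.1% for ACEi (10.8% and 41.9%). Compared with WT, 56 were called lower and 10 higher in Anti-miR-21 mice, and 63 lower and 11 higher in ACEi mice. That balance turned with library totals alone, to 18 lower and 26 higher in Anti-miR-21 mice and 25 lower and 28 higher in ACEi mice. Of all genes, 19.8% were lower and 23.9% higher than WT in Anti-miR-21 mice (5.66% and 43.8% with library totals alone), and 22.5% and 25.2% in ACEi mice (7.63% and 45.4%). Between the treatments 1 gene was called, the peroxisomal hydroxyacid oxidase Hao2, named after its value was seen, with 608 ± 138 CPM in Anti-miR-21 mice (SD, n = 6) and 284 ± 32.5 CPM in ACEi mice (SD, n = 3). These totals count each gene once, while a gene of several lists is counted in each list below.

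**Figure D5:**
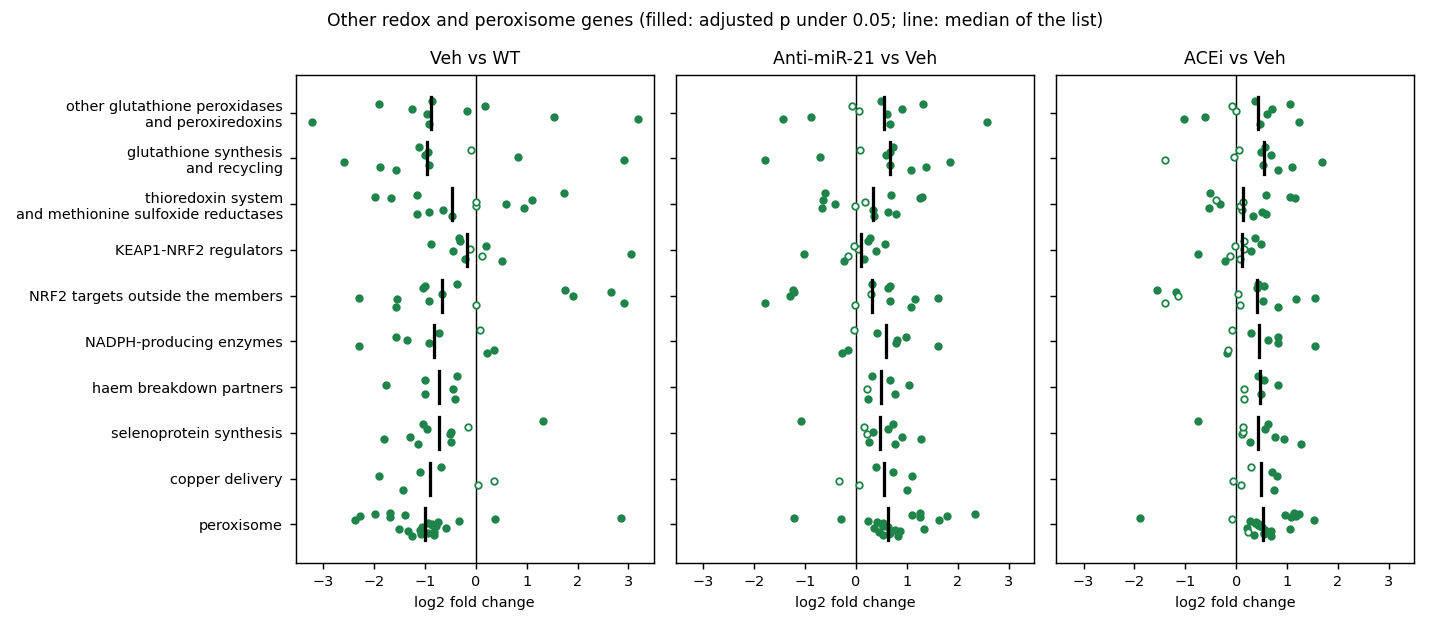
Log2 fold change (x axis) of the tested genes of 10 redox and peroxisome lists (y axis) in 3 comparisons; each point is 1 gene, filled if its adjusted p in edgeR's test was under 0.05, and the vertical line is the median of the list. The medians of all 10 lists are below 0 between Veh and WT and above 0 for both treatments against Veh, with TMM scaling, and those of the thioredoxin system and the KEAP1-NRF2 regulators turn with library totals alone, to 0.11 and 0.42 between Veh and WT, to −0.02 and −0.25 between Anti-miR-21 and Veh, and to −0.13 and −0.17 between ACEi and Veh, as does the NRF2 target list between Anti-miR-21 and Veh, to −0.02.

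Other glutathione peroxidases and peroxiredoxins moved in both directions. Of 10 tested, 7 fell and 3 rose in Veh, with a median of −0.88 beside 0.07 for all genes. Gpx6 fell from 20.3 to 2.19 CPM (log2 fold change −3.22) and Prdx5, a mitochondrial and peroxisomal peroxiredoxin, from 1414 to 378 CPM (−1.90). Against Veh, Gpx6 rose by 2.58 in Anti-miR-21 mice and 1.24 in ACEi mice on the log2 scale, and Prdx5 by 1.31 and 1.06. Gpx7 and Gpx8, peroxidases of the endoplasmic reticulum, rose in Veh by 3.18 and 1.53, from 1.42 to 13 CPM and from 10.3 to 29.7 CPM, and fell by 1.43 and 0.89 in Anti-miR-21 mice.

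Around Gclc, 7 of the 10 genes of glutathione synthesis and recycling fell in Veh and 2 rose (median −0.96). Ggt1, the brush border enzyme that breaks down extracellular glutathione, fell from 2110 ± 232 to 351 ± 121 CPM, a log2 fold change of −2.59 (edgeR adjusted p = 4.6e-10), and rose by 1.84 and 1.68 in Anti-miR-21 and ACEi mice against Veh. Gss, glutathione synthetase, fell from 513 to 139 CPM (−1.88) and rose by 1.38 and 1.10. Of those that rose in Veh, Slc7a11, the cystine importer, went from 0.201 to 1.55 CPM (log2 fold change 2.92) and Chac1, which degrades glutathione, from 1.41 to 2.54 CPM (0.84), both at low levels. Slc7a11 fell by 1.79 in Anti-miR-21 mice against Veh and was −1.39 in ACEi mice, where it was not called.

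In the thioredoxin system and the methionine sulfoxide reductases, 7 of 13 genes fell in Veh and 4 rose (median −0.47 with TMM, and 0.11 with library totals alone beside 0.65 for all genes). Msrb1 and Msra, which repair oxidized methionine, were lower by 1.98 and 1.67 in Veh than in WT. Compared with Veh, they were higher by 1.30 and 1.26 in Anti-miR-21 mice and by 1.05 and 1.15 in ACEi mice. Msrb3 rose by 1.73 and the sestrin Sesn3 by 1.10 in Veh, and fell by 0.61 and 0.65 in Anti-miR-21 mice. Against Veh, ACEi mice had Msrb3 lower by 0.52, and Sesn3 at −0.40 did not pass the test.

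Among the KEAP1-NRF2 regulators 5 of 10 were called lower and 3 higher in Veh, with a median of −0.16. Nfe2l2, which encodes NRF2, rose from 102 ± 5.04 to 145 ± 10.8 CPM, a log2 fold change of 0.52 (SE 0.06, edgeR adjusted p = 6.1e-08), and fell by 0.24 in Anti-miR-21 and 0.23 in ACEi mice against Veh. Keap1, its inhibitor, had 54.3 and 46.6 CPM, a log2 fold change of −0.22 that became 0.36 with library totals alone. Bach1, a repressor of Hmox1, rose by 0.21 in Veh and stood at −0.03 in both treated groups against Veh, not called. Maff, a small MAF partner, rose from 2.49 to 20.7 CPM (3.05), while Cul3, the ubiquitin ligase scaffold that KEAP1 binds, fell by 0.87 and Mafg by 0.44. With library totals alone the list turned, with 8 genes higher and 1 lower in Veh and a median of 0.42 beside 0.65 for all genes, and Mafg was at 0.15.

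NRF2 targets outside the 10 enzymes moved in both directions. Of 13, 8 fell and 4 rose in Veh with TMM (median −0.67), and 6 fell and 6 rose with library totals alone. Me1, the cytosolic malic enzyme, fell from 663 to 136 CPM (−2.29) and Gclm, the partner subunit of Gclc, from 430 to 146 CPM (−1.56). Gclm rose by 1.08 in Anti-miR-21 mice and 0.83 in ACEi mice against Veh. Cbr3, a carbonyl reductase, rose from 1.3 to 8.24 CPM (2.66) and fell by 1.22 and 1.18 under the treatments, and Slc7a11 is given above.

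Of the 8 NADPH-producing enzymes 5 fell and 2 rose in Veh (median −0.82), or 4 and 3 with library totals alone. Nnt, the mitochondrial transhydrogenase that supplies NADPH for peroxide removal, fell from 191 ± 24.2 to 64.8 ± 12.5 CPM (log2 fold change −1.56, edgeR adjusted p = 1.9e-10) and rose by 0.98 and 0.82 in Anti-miR-21 and ACEi mice. Me1 rose by 1.62 and 1.55. The pentose phosphate enzymes Pgd and G6pdx rose slightly in Veh, by 0.35 and 0.23. Among the 6 heme breakdown partners all 6 fell in Veh (median −0.72), led by Por, which passes electrons to heme oxygenase, from 605 to 178 CPM (−1.76), and Fth1, the ferritin heavy chain, from 2921 to 1470 CPM (−0.99). With library totals alone 3 of the 6 fell and 2 rose. Hmox1 was thus called higher in Veh while its partners were called lower under TMM scaling.

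Gpx1, Gpx3 and Txnrd1 are selenoproteins, and 8 of the 10 genes of selenoprotein synthesis fell in Veh and 1 rose (median −0.72), or 5 and 2 with library totals alone. Sephs2, which makes the selenium donor, fell from 436 to 125 CPM (−1.81) and Sepsecs from 49.1 to 20 CPM (−1.29), and they rose by 1.28 and 0.90 in Anti-miR-21 mice and by 0.94 and 0.77 in ACEi mice. Lrp8, a receptor for selenoprotein P, rose from 1.77 to 4.45 CPM (1.33). In copper delivery, which serves Sod1 and Sod3, 4 of 6 genes fell in Veh and none was called higher (median −0.89), or 3 fell and 2 rose with library totals alone. Ccs, the copper chaperone of Sod1, fell from 97.3 ± 9.52 to 36.2 ± 5.07 CPM (−1.43, edgeR adjusted p = 9.9e-10) and rose by 1.01 and 0.75 in Anti-miR-21 and ACEi mice, and the copper pump Atp7b fell by 1.90.

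Cat works in the peroxisome, and 22 of 24 peroxisome genes fell in Veh while 2 rose, with a median of −1.0 (20 fell and 3 rose with library totals alone). In Anti-miR-21 mice 22 were higher and 2 lower than in Veh, and in ACEi mice 21 were higher and 1 lower, against 18 and 2, and 13 and 2, with library totals alone. Pxmp2, a peroxisomal membrane channel, fell from 52.3 to 10.8 CPM in Veh (log2 fold change −2.28) and rose by 1.79 and 1.17 in Anti-miR-21 and ACEi mice against Veh. The transporter Abcd2 rose in Veh by 2.85, from 0.415 to 3.02 CPM, and fell by 1.22 and 1.89 under the treatments.

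The genes whose log2 CPM followed each enzyme most closely over the 20 mice were named by Pearson's r among 12569 protein-coding genes, as a description, since the 4 group means dominate it and all genes come from the same libraries. For Cat they were Ddah1 (0.997), Slc3a1 (0.996) and Ankrd13c (0.996). Sod1 was nearest to Cyc1 (0.996), Prdx5 (0.996) and Iah1 (0.995), Sod2 to Sucla2 (0.997), Hibadh (0.996) and Coq9 (0.996), and Sod3 to Tm2d2, Phb and Ndufs3 (0.99 each). Among the genes nearest to Gpx3 were Cltrn and Hsd3b2 (0.99 each). Gpx1 was nearest to Cyba, Ninj1 and Cks2 (0.97 each), and Gclc to Pcmtd1, Yme1l1 and Mapkap1 (0.98 each). Nqo1 had Tprkb (0.98), Slc38a3 (0.97) and Tmem143 (0.97), and Txnrd1 had Dis3l, Smurf2 and Kdm1b (0.95 each). Hmox1 had the lowest values of the 10, with Cxcl9 (0.90), Slamf8 (0.87) and Cd209a (0.87), which are a chemokine and genes of myeloid cells.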

How the data were processed

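Total RNA of whole kidney was sequenced as paired-end reads. The authors aligned them to GRCm38 with the OSA aligner (version 4, OmicSoft Studio 9.0, Ensembl release 83) and deposited expected counts (estimated counts, 29.1% of positive values not whole) per gene, not normalized between libraries, and FPKM values on mostly UCSC gene models. Whether strand was used is not given in the sources used here. Library, age, dose and flow cell came from the labels and the deposited library table. 3 columns of per-sample values match no labelled mouse and were not used. The number of aligned reads per library, as deposited, lay between 70004591 and 73294858.

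Estimated counts were rounded, filtered with filterByExpr (minimum count 10, minimum total 15), scaled by TMM and fitted in R 4.3.3 by edgeR 4.0.16 (quasi-likelihood F test), each group with its own coefficient, and p-values were adjusted over 17622 genes by the Benjamini-Hochberg method. The alternatives were DESeq2 1.42.0, upper-quartile scaling, library totals alone, no filter, only the 2 groups compared, a flow cell term, single flow cells, limma 3.58.1 on log2(FPKM + 1) and omission of single mice. The steps were tested on simulated data. The WT mice were littermates of the F1-Col4a3−/− mice, but no source used here ties single mice to a litter or a day, so p-values measure the spread between these mice.

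The 10 members and all lists were chosen with earlier results of these data known. Named were all 10, the up to 2 genes of each list that rose most and the up to 2 that fell most in Veh against WT, Nfe2l2, Keap1, Bach1 and Nnt, the 3 genes most like each member and the most abundant marker of each list. A few genes that this rule names are not reported here. Promoter windows came from RefSeq.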

Additional observations from a re-analysis of the deposited data

How the results depend on the processing

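No paired analysis was possible because the replicate numbers follow the order of the samples and pair no mice. With 3 ACEi mice, 1 of them on flow cell A, and 1 Anti-miR-21 mouse on flow cell B, fits within a flow cell rest on lone mice assumed to vary like the others.

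Every call between Veh and WT and between Anti-miR-21 and Veh kept its direction and its side of the threshold with upper-quartile scaling, without the filter, with flow cell as a term, with only the groups compared, with DESeq2 and without any 1 mouse. Txnrd1 turned between Veh and WT to 0.14 with library totals alone and 0.15 on log2(FPKM + 1), between Anti-miR-21 and Veh to −0.04 with each, and between ACEi and Veh to −0.00055 with library totals. Between Anti-miR-21 and ACEi, Sod2 was −0.05 and Gpx1 −0.10 on flow cell B; Gpx1 was −0.04 and −0.05 and Txnrd1 −0.04 and −0.04 with library totals and FPKM. Between Anti-miR-21 and WT, Gpx1 was 0.07 with each of those, Gpx3 0.05 with each, Nqo1 0.07 and 0.06, Txnrd1 0.10 and 0.11, and Txnrd1 0.02 on flow cell B. Between ACEi and WT, Gpx1 was 0.11 and 0.12 and Txnrd1 0.14 and 0.15. None of these turned values was called. With library totals the median of all genes moved too.

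Between ACEi and Veh 9 of the 10 enzymes (and 6577 genes) were called with flow cell as a term and 8 (and 7099 genes) with only these groups fitted. Counts of calls moved as follows. Between Anti-miR-21 and Veh 418 genes and 1 of the 10 enzymes were called on flow cell B. Between ACEi and Veh 3057 genes were called on flow cell A, and 1316 genes and 3 enzymes on B. Between the treatments 66 genes were called without the filter, 5 on flow cell A, 0 on B, and 437 genes and 2 enzymes by DESeq2. Between Anti-miR-21 and WT 2437 genes and 0 enzymes were called on B, and between ACEi and WT 4893 on A and 4999 on B; these flow cells hold fewer mice. Leaving out 1 mouse gave 12491 to 12804 genes between Veh and WT, 9655 to 10355 between Anti-miR-21 and Veh, 4978 to 7335 between ACEi and Veh, 21 (without A23) to 2.1e+02 (without A8) between the treatments, 6652 to 7935 between Anti-miR-21 and WT and 6856 to 8418 between ACEi and WT. In those fits Gpx1 and Txnrd1 between the treatments fell to −0.05 (without A12) and −0.02 (without A23). Gpx3 between ACEi and WT was called by DESeq2 (adjusted p = 0.0283).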
